A study of Homo sapiens with 12 samples.

Results

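Polycomb proteins keep developmental regulators and cell cycle inhibitors silent, and they work in 2 kinds of complex. Polycomb repressive complex 2 (PRC2) trimethylates lysine 27 of histone H3 (H3K27me3) through EZH2 or its paralog EZH1, needs EED and SUZ12 to do so, and is helped to its sites by JARID2. Canonical PRC1 reads that mark through a CBX protein such as CBX7 or CBX8 and contains a PCGF subunit such as BMI1. KDM6B (JMJD3) and KDM6A (UTX) take the methyl groups off again. These 8 Polycomb genes and KDM6B are described here. They were taken by symbol from the 48162 gene IDs of the count tables, and all 9 had an ID and passed the filter on low counts in every comparison.

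RNA was sequenced from IMR90 fibroblasts, a normal diploid strain from human lung, in 4 groups of 3 libraries, in a study of the H3K79 methyltransferase DOT1L and the secretory program of senescent cells. RAS/shDOT1L cells carried HRAS G12V in the retroviral vector pBABE and 1 pLKO.1 hairpin against DOT1L. RAS cells carried HRAS G12V alone, and their labels name no control hairpin, although the study's methods list one against GFP. DOT1L OE cells carried a wild-type human DOT1L cDNA in the vector MSCB, and control cells a pBABE control. All cells were grown in 2% O2 and put under drug selection over 4 days, which was puromycin (3 µg/mL) in all groups but DOT1L OE, where it was blasticidin (1 µg/mL), so that drug, vector and DOT1L cannot be told apart in that group. The doses and the time are those of the labels. The study's methods give them for the hairpin infections and describe another puromycin dose and a longer selection for the pBABE infections, so RAS and control may have been selected otherwise than RAS/shDOT1L.

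The libraries held 16128055 to 19503457 counts. DOT1L followed the labels, at 10.2 to 11.4 CPM (counts scaled for library size with TMM factors) in RAS/shDOT1L, 82.3 to 88.5 in RAS, 192 to 208 in DOT1L OE and 29.1 to 33.6 in control, counts of the cDNA included. HRAS, which likewise includes the introduced cDNA, stood at 262 to 287 CPM in RAS/shDOT1L against 492 to 512 in RAS, and its part in the differences between these groups was not tested. The 8 fibroblast markers were at or above 1 CPM in every group, with a summed level of 14630 to 19655 CPM. The 3 leukocyte markers summed to at most 0.375 CPM and the 2 endothelial markers to at most 1.97 CPM. The 5 epithelial markers summed to 41.3 to 54.2 CPM in RAS/shDOT1L, 8.61 to 17.1 in RAS, 35.7 to 37.9 in DOT1L OE and 114 to 119 in control, nearly all of it KRT19, while SFTPC, the surfactant gene of lung epithelium, was at 0. Their part in the results was not tested.

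The share of GC-rich transcripts differed between the groups. The decile of genes richest in GC, relative to the poorest decile and to the mean of all libraries, stood at -0.058 ± 0.035 log2 units in RAS/shDOT1L (mean ± SD, n = 3), 0.75 ± 0.011 in RAS, -0.17 ± 0.092 in DOT1L OE and -0.51 ± 0.034 in control. The 9 genes span this range, from 38.2% GC in the SUZ12 transcript, 39.3% in EED, 40.5% in BMI1 and 43.1% in EZH2, through 48.7% in EZH1 and 50.8% in JARID2, to 59.5% in CBX8, 60.0% in CBX7 and 62.0% in KDM6B. Each comparison was therefore fitted as deposited and again with an offset for this trend, and both values are given for the 9 genes where the call or the sign in a called comparison changed, and both counts for the other lists. Whether the trend comes from the libraries or from the cells was not tested. In bulk RNA, fewer transcripts in each cell and fewer cells with the transcript cannot be told apart.

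Changes were tested with the quasi-likelihood test of edgeR and p-values adjusted over all genes (Benjamini-Hochberg), and a gene was called at an adjusted p under 0.05. In RAS against control 6 of the 9 genes were called, against 64.0% of all genes. JARID2 and KDM6B were higher (31.9% of all genes were), and EED, SUZ12, BMI1 and CBX8 were lower (32.0%). For RAS/shDOT1L against RAS the count was 3 of 9, against 52.7% of all genes, namely EZH1, JARID2 and KDM6B, all lower (26.4% of all genes were lower and 26.3% higher). For DOT1L OE against control it was 3 of 9, against 59.9% of all genes, namely EZH2, JARID2 and KDM6B, all higher (29.9% of all genes were higher and 29.9% lower). For RAS/shDOT1L against control it was 5 of 9, against 55.5% of all genes, with JARID2 and KDM6B higher (27.9%) and EZH1, EZH2 and SUZ12 lower (27.6%). No count stood clearly above its background, and the genes are therefore described one by one.

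A change of over 1.5-fold was shown by JARID2 and KDM6B in RAS against control (26.9% of all genes), by EZH1 and KDM6B in RAS/shDOT1L against RAS (17.0%), by EZH2 in DOT1L OE against control (20.8%) and by EZH1 in RAS/shDOT1L against control (19.1%). The count in RAS/shDOT1L against RAS rested on single libraries, being 0 without RAS/shDOT1L replicate 3 or RAS replicate 1, 1 without RAS/shDOT1L replicate 2, RAS replicate 2 or RAS replicate 3, and 0 with DESeq2 or limma-voom. With the GC offset 4 of 9 were called in RAS against control (53.1% of all genes), 5 in RAS/shDOT1L against RAS (46.3%), 3 in DOT1L OE against control (59.5%) and 5 in RAS/shDOT1L against control (55.1%). The 3 comparisons against control share the control libraries, and the RAS and RAS/shDOT1L libraries each enter 2 comparisons. The labels do not say that the libraries of a group came from separate cultures. The study's legends call them technical replicates of a single experiment, whereas its methods speak of biological replicates. The p-values therefore cover only library-to-library spread, some or all of which may be technical. When library size alone set the scale, the median gene moved to -0.24 in RAS against control and -0.13 in RAS/shDOT1L against control (from -0.043 and -0.0093), and the higher share of called genes to 36.9% and 40.0% (from 49.9% and 50.3%).

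**Figure D1:**
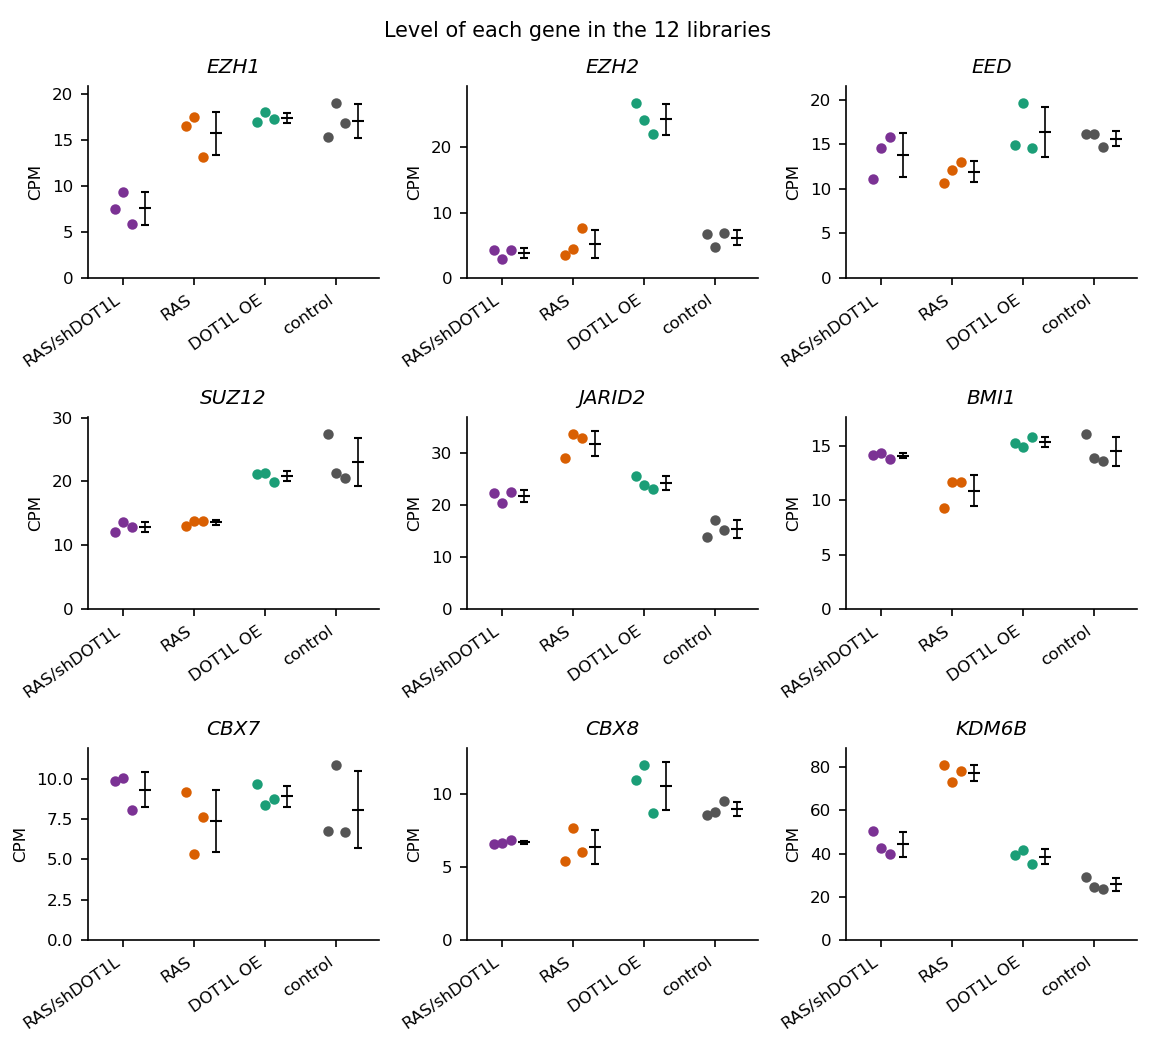
CPM of each of the 9 genes in the 12 libraries (points, 3 a group), with the mean and SD of each group; each panel has its own axis from 0. EZH2 stands apart in the 3 DOT1L OE libraries (22.0 to 26.7 CPM, against 4.80 to 6.94 in control), and KDM6B is highest in RAS (73.3 to 80.8 CPM, against 23.5 to 29.2 in control).

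EZH1 is the PRC2 methyltransferase of resting and differentiated cells (ENSG00000108799, GRCh38 chr17:42700275-42745049, minus strand). It had 7.50, 9.35 and 5.81 CPM in RAS/shDOT1L, against 16.5, 17.5 and 13.1 CPM in RAS. It had 16.9, 18.0 and 17.2 CPM in DOT1L OE, against 15.3, 18.9 and 16.8 CPM in control. The RAS/shDOT1L libraries lay below the other 9, which overlapped between groups. In RAS/shDOT1L, EZH1 was 2.05-fold below RAS (log2 change -1.03, SE 0.20, edgeR adjusted p = 4.15e-05) and 2.24-fold below control (log2 change -1.17, SE 0.18, edgeR adjusted p = 3.64e-06). With the GC offset these changes were -1.09 and -1.17, and both passed the edgeR test for over 1.5-fold without it (adjusted p = 0.024 against RAS and 0.0028 against control). EZH1 was not called in RAS against control (log2 change -0.12, SE 0.15, edgeR adjusted p = 0.499) or in DOT1L OE against control (log2 change 0.035, SE 0.12, edgeR adjusted p = 0.823).

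EZH2 is the PRC2 methyltransferase of dividing cells (ENSG00000106462, GRCh38 chr7:148807257-148884321, minus strand). It had 26.7, 24.2 and 22.0 CPM in DOT1L OE, against 6.66, 4.80 and 6.94 CPM in control. It had 4.31, 2.95 and 4.23 CPM in RAS/shDOT1L and 3.52, 4.36 and 7.60 CPM in RAS, where replicate 3 was above every control library. DOT1L OE did not overlap any other group, and RAS overlapped both RAS/shDOT1L and control. In DOT1L OE, EZH2 was 3.96-fold above control (log2 change 1.98, SE 0.14, edgeR adjusted p = 1.37e-13, and 2.04 with the GC offset), the largest change of the 9 genes in the 4 comparisons, and it was between 1.83 and 2.08 without any 1 library. In RAS/shDOT1L it was 1.60-fold below control with no overlap (log2 change -0.68, SE 0.27, edgeR adjusted p = 0.036), a call that was lost with the GC offset (-0.59, adjusted p = 0.0653). That call was also lost in edgeR without RAS/shDOT1L replicate 2 (-0.52, adjusted p = 0.128), control replicate 1 (-0.62, adjusted p = 0.113) or control replicate 3 (-0.58, adjusted p = 0.142). EZH2 was not called in RAS against control (log2 change -0.26, SE 0.27, edgeR adjusted p = 0.417) or in RAS/shDOT1L against RAS (log2 change -0.41, SE 0.32, edgeR adjusted p = 0.304). Its counts were low, 47 to 138 a library outside DOT1L OE, against 470 to 517 in DOT1L OE.

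A list of 20 genes of DNA replication and mitosis is given beside EZH2. In DOT1L OE against control 20 of 20 were higher (29.9% of all genes), with a median log2 change of 2.14, against 0.0060 over all genes. In RAS against control 17 of 20 were lower and 0 higher (32.0% and 31.9% of all genes), with a median of -1.01, against -0.043. RAS/shDOT1L against RAS gave 14 lower and 1 higher of 19 tested (26.4% and 26.3% of all genes). The median there was -0.97, against 0.028, and the higher one was PCNA, the replication clamp (1.38). RAS/shDOT1L against control gave 19 lower and 1 higher of 20 (27.6% and 27.9% of all genes), with a median of -1.90, against -0.0093. Under the offset 20 of 20 were lower in RAS against control, where 53.1% of all genes were called in either direction. The other counts were as given, with 46.3%, 59.5% and 55.1% of all genes called in RAS/shDOT1L against RAS, DOT1L OE against control and RAS/shDOT1L against control. The summed level was 198 to 214 CPM in RAS/shDOT1L, 299 to 324 in RAS, 2294 to 2371 in DOT1L OE and 553 to 567 in control, so DOT1L OE was highest for the list as for EZH2. RRM2, a subunit of ribonucleotide reductase, CDC20, an activator of the anaphase-promoting complex, and TOP2A, a topoisomerase of dividing cells, had the smallest p in DOT1L OE against control, at 2.25, 3.05 and 2.41. The part of cell division in the EZH2 values was not tested.

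The promoters of EZH1, EZH2 and SUZ12 are shown because these 3 genes have a match to the motif of E2F, the factor family that drives genes of DNA replication. The forms searched on both strands were TTTCCCGC, TTTGGCGC, TTTCGCGC and TTTGCCGC, in windows of 250 bases before to 50 bases after each start in the RefSeq table (GRCh38.p14). At least 1 form was in 3.31% of 35116 windows of all genes and in 3 of the 12 windows of the 8 genes that matched the table, CBX8 being the gene without one. Every form contains a CpG, and the share of all windows was not matched for CpG content. The windows with a match held 30 CpG in EZH1, 46 in EZH2 and 40 in SUZ12, against a median of 14 over all windows. In SUZ12 the match was TTTCCCGC (1.63% of all windows), starting 189 bases before the start of transcription. In EZH1 it was TTTGCCGC on the opposite strand (0.607%), 115 bases before the start. In EZH2 it was TTTGGCGC (0.652%), just past the more upstream of its starts and so outside the stretch printed here, which is shown for comparison. A match of letters is not a binding site. Each stretch runs 5′ to 3′ on the strand of the gene outside annotated exons, with the match in capitals (for EZH1 in its reverse complement), at chr17:42745050-42745290 (minus strand) for EZH1, chr7:148884322-148884541 (minus strand) for EZH2 and chr17:31936757-31937006 (plus strand) for SUZ12.
EZH1: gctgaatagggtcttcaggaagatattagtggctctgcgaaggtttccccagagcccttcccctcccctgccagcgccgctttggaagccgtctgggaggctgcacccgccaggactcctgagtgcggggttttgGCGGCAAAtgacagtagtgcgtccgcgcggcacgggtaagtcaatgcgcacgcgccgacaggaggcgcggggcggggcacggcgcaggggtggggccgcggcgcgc
EZH2: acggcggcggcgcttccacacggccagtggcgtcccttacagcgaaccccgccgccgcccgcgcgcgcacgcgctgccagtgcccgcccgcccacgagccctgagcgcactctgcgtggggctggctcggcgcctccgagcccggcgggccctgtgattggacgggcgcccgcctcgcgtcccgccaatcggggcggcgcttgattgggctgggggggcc
SUZ12: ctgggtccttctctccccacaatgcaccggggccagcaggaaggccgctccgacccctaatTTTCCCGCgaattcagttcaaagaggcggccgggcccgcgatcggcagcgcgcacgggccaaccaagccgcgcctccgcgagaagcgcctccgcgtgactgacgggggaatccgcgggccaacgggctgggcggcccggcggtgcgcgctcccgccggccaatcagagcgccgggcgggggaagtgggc

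EED binds H3K27me3 and switches the PRC2 enzyme on (ENSG00000074266, GRCh38 chr11:86201212-86278813, plus strand). It had 10.7, 12.1 and 13.03 CPM in RAS, against 16.1, 16.1 and 14.6 CPM in control, with no overlap. It had 11.1, 14.6 and 15.8 CPM in RAS/shDOT1L and 14.9, 19.6 and 14.6 CPM in DOT1L OE, and both groups overlapped control. EED was 1.31-fold below control in RAS (log2 change -0.39, SE 0.15, edgeR adjusted p = 0.0262), whereas the GC offset turned the change to 0.17 (edgeR adjusted p = 0.361). The edgeR call was also lost without RAS replicate 1 (-0.32, adjusted p = 0.0958), control replicate 1 (-0.37, adjusted p = 0.0722) or control replicate 2 (-0.37, adjusted p = 0.0689). Of 1034 genes within 1 percentage point of its GC content, 62.9% were called lower in this comparison and 5.51% higher, with a median of -0.57. In the other 3 comparisons EED was not called, at 0.23 in RAS/shDOT1L against RAS, 0.073 in DOT1L OE against control and -0.17 in RAS/shDOT1L against control.

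SUZ12 holds the core of PRC2 together (ENSG00000178691, GRCh38 chr17:31937007-32001038, plus strand). It had 12.01, 13.6 and 12.8 CPM in RAS/shDOT1L and 13.1, 13.8 and 13.8 CPM in RAS, against 27.4, 21.3 and 20.5 CPM in control. It had 21.2, 21.4 and 19.9 CPM in DOT1L OE. Every library with HRAS G12V lay below every library without it, and DOT1L OE overlapped control (log2 change -0.14, SE 0.12, edgeR adjusted p = 0.294). SUZ12 was 1.70-fold below control in RAS (log2 change -0.77, SE 0.14, edgeR adjusted p = 1.83e-05) and 1.79-fold below control in RAS/shDOT1L (log2 change -0.84, SE 0.15, edgeR adjusted p = 1.61e-05). With the GC offset the change in RAS was -0.13 (edgeR adjusted p = 0.441), and that in RAS/shDOT1L was -0.57 and still called (edgeR adjusted p = 0.00142). Of 787 genes of like GC content, 67.0% were lower in RAS against control. RAS/shDOT1L and RAS overlapped (log2 change -0.063, SE 0.17, edgeR adjusted p = 0.782), and with the GC offset SUZ12 was called lower in RAS/shDOT1L (-0.45, edgeR adjusted p = 0.0279). Reads may be shared with SUZ12P1, a partial copy of the gene, which had 0.979 to 2.56 CPM and was called in no comparison.

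JARID2 binds PRC2 and nucleosomes and is best known from embryonic stem cells (ENSG00000008083, GRCh38 chr6:15246069-15522042, plus strand). It had 29.0, 33.6 and 32.8 CPM in RAS, against 13.8, 17.1 and 15.1 CPM in control. It had 22.3, 20.5 and 22.4 CPM in RAS/shDOT1L and 25.6, 23.9 and 23.1 CPM in DOT1L OE. No pair of the 4 groups overlapped, and the order from high to low was RAS, DOT1L OE, RAS/shDOT1L and control. In RAS, JARID2 was 2.07-fold above control (log2 change 1.05, SE 0.13, edgeR adjusted p = 8.64e-09), and in DOT1L OE 1.58-fold above control (log2 change 0.66, SE 0.12, edgeR adjusted p = 1.02e-05). In RAS/shDOT1L it was 1.45-fold below RAS (log2 change -0.53, SE 0.12, edgeR adjusted p = 0.000502) and still 1.42-fold above control (log2 change 0.50, SE 0.14, edgeR adjusted p = 0.00264). All 4 calls were kept with the GC offset and under each of the other alternatives run. Genes within 1 percentage point of its GC content had a median change of 0.076 in RAS against control and 0.011 in RAS/shDOT1L against RAS.

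BMI1 is the PCGF4 subunit of canonical PRC1 and is known as a repressor of the INK4 locus, which encodes the cell cycle inhibitors p16 and p15 (ENSG00000168283, GRCh38 chr10:22321099-22331484, plus strand). It had 9.24, 11.7 and 11.7 CPM in RAS, against 16.1, 13.9 and 13.6 CPM in control, with no overlap. It had 14.2, 14.4 and 13.8 CPM in RAS/shDOT1L, all above RAS, and 15.3, 14.9 and 15.8 CPM in DOT1L OE. BMI1 was 1.33-fold below control in RAS (log2 change -0.42, SE 0.16, edgeR adjusted p = 0.0258), whereas the GC offset turned the change to 0.093 (edgeR adjusted p = 0.658). The edgeR call was also lost without RAS replicate 1 (-0.31, adjusted p = 0.117) or control replicate 1 (-0.34, adjusted p = 0.12). Of 1170 genes of like GC content, 59.3% were lower in that comparison. RAS/shDOT1L against RAS gave 0.40 (SE 0.18, edgeR adjusted p = 0.0578) and 0.11 with the GC offset, and edgeR called it with library size as the sole scaling (0.47, adjusted p = 0.0258) and in 1 fit over all 4 groups (0.38, adjusted p = 0.0349). The readthrough gene COMMD3-BMI1, which shares 1000 of the 4395 exon bases of BMI1, had no count in any library. BMI1 was not called in DOT1L OE against control (0.085) or in RAS/shDOT1L against control (-0.033).

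CBX7 and CBX8 are chromodomain subunits that bring canonical PRC1 to H3K27me3, and both are known to repress the INK4 locus in human fibroblasts. CBX7 (ENSG00000100307, GRCh38 chr22:39120167-39152680, minus strand) had 9.85, 10.04 and 8.08 CPM in RAS/shDOT1L and 9.18, 5.33 and 7.66 CPM in RAS. It had 9.66, 8.36 and 8.76 CPM in DOT1L OE, against 6.76, 10.8 and 6.69 CPM in control. Every pair of groups compared overlapped, and CBX7 was called in none of the 4 comparisons, at 0.35 (SE 0.23) in RAS/shDOT1L against RAS, -0.13 (SE 0.23) in RAS against control, 0.15 (SE 0.18) in DOT1L OE against control and 0.21 (SE 0.21) in RAS/shDOT1L against control. Under the GC offset edgeR called it lower in RAS against control (-0.65, adjusted p = 0.0173) and higher in RAS/shDOT1L against RAS (0.69, adjusted p = 0.0113). Its counts were 88 to 201 a library. An annotated lncRNA on the opposite strand covers 1338 of its exon bases, and one covers 221 of those of EED. Reads of such pairs cannot be told apart where strand was not used in counting.

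CBX8 (ENSG00000141570, GRCh38 chr17:79792132-79801683, minus strand) had 6.59, 6.65 and 6.82 CPM in RAS/shDOT1L and 5.43, 7.698 and 6.003 CPM in RAS, against 8.57, 8.79 and 9.51 CPM in control. It had 11.0, 11.96 and 8.71 CPM in DOT1L OE. The 6 libraries with HRAS G12V were below the 3 of control, and DOT1L OE overlapped control (log2 change 0.24, SE 0.16, edgeR adjusted p = 0.197). CBX8 was 1.41-fold below control in RAS (log2 change -0.49, SE 0.21, edgeR adjusted p = 0.0385). The call was lost with DESeq2 (adjusted p = 0.0569), in edgeR with no filter beyond 1 count (adjusted p = 0.0616), and in edgeR without RAS replicate 1, RAS replicate 3 or any 1 control library (adjusted p = 0.0575 to 0.126). It went against genes of like GC content, of which 62.5% of 819 were higher in RAS against control and 10.1% lower. After the GC offset the change was -0.99 (edgeR adjusted p = 0.000139), and over 1.5-fold (edgeR adjusted p = 0.042). In RAS/shDOT1L, CBX8 differed from control by -0.42 (SE 0.20, edgeR adjusted p = 0.0815), and by -0.57 with the GC offset (edgeR adjusted p = 0.0173). RAS/shDOT1L and RAS overlapped (log2 change 0.087, SE 0.24, edgeR adjusted p = 0.79).

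KDM6B is the inducible H3K27 demethylase of inflammatory and stress responses (ENSG00000132510, GRCh38 chr17:7834217-7854796, plus strand). It had 80.8, 73.3 and 78.1 CPM in RAS, against 29.2, 24.5 and 23.5 CPM in control. It had 50.6, 42.5 and 39.6 CPM in RAS/shDOT1L and 39.1, 41.5 and 35.02 CPM in DOT1L OE. RAS lay above every other library and control below every other, and RAS/shDOT1L and DOT1L OE overlapped. In RAS, KDM6B was 3.01-fold above control (log2 change 1.59, SE 0.091, edgeR adjusted p = 1.91e-16), and in DOT1L OE 1.5-fold above control (log2 change 0.59, SE 0.099, edgeR adjusted p = 5.61e-06). In RAS/shDOT1L it was 1.73-fold below RAS (log2 change -0.79, SE 0.092, edgeR adjusted p = 7.86e-09) and 1.72-fold above control (log2 change 0.79, SE 0.11, edgeR adjusted p = 9.92e-07). By level per kb of exon KDM6B led the 9 genes in RAS/shDOT1L, RAS and DOT1L OE. It stood there at 5.98 ± 0.775, 10.5 ± 0.515 and 5.22 ± 0.446 CPM per kb (SD, n = 3 each). In control it stood at 3.48 ± 0.408, beside SUZ12 at 3.52 ± 0.572. The length is the union of all annotated exons, 7392 bases in KDM6B and 10774 in EZH2. Ranks between genes depend on this choice, and other lengths were not tried.

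KDM6B is also the richest of the 9 in GC. Of 670 genes within 1 percentage point, 63.4% were higher in RAS against control, with a median of 0.54, and of 672 such genes 50.1% were lower in RAS/shDOT1L against RAS, with a median of -0.37. Under the GC offset edgeR kept all 4 calls, at 1.03 in RAS against control (adjusted p = 2.17e-11), -0.42 in RAS/shDOT1L against RAS (adjusted p = 0.000296), 0.49 in DOT1L OE against control and 0.60 in RAS/shDOT1L against control. The change over 1.5-fold then held in RAS against control (edgeR adjusted p = 3.14e-05) and not in RAS/shDOT1L against RAS (edgeR adjusted p = 1).

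**Figure D2:**
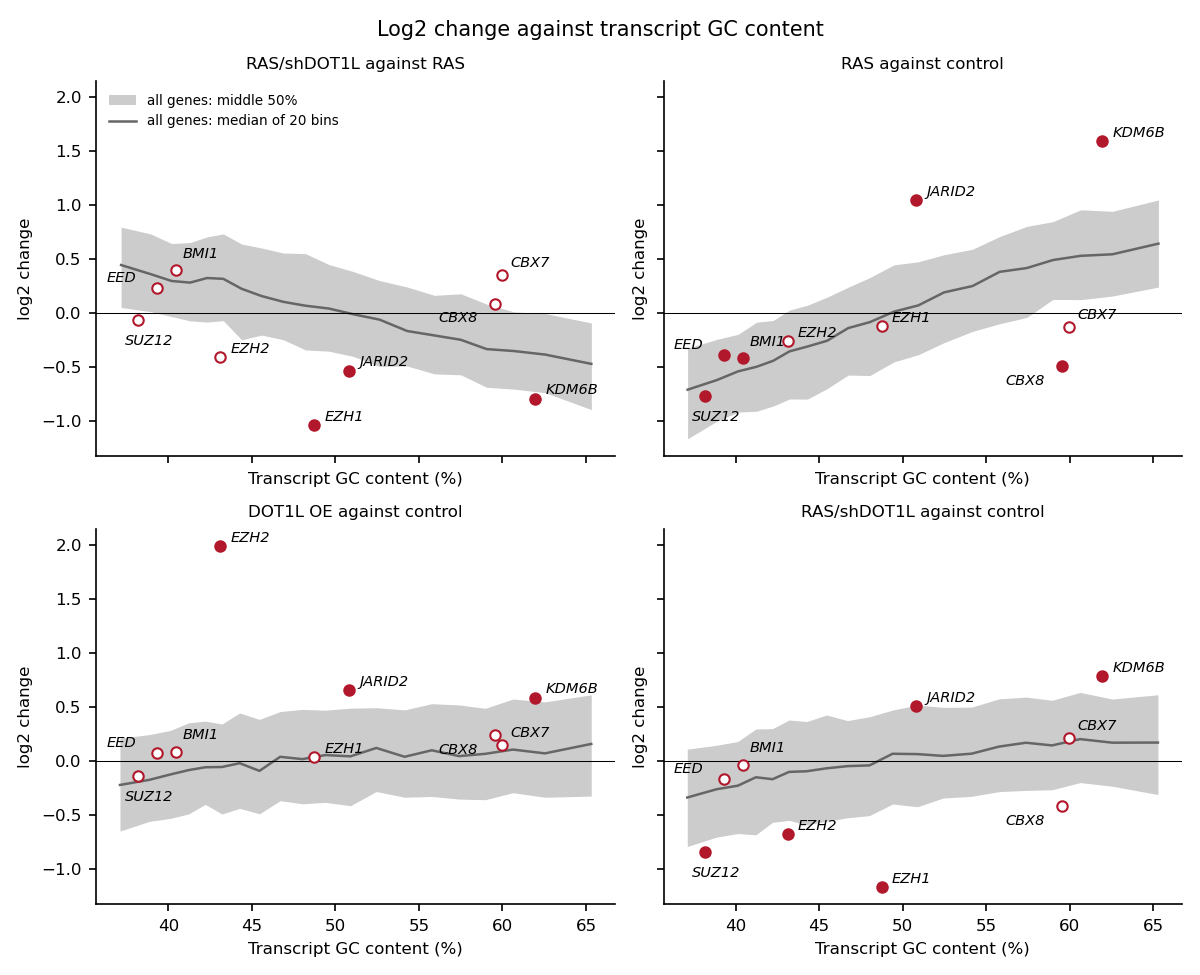
Log2 change of each of the 9 genes against the GC content of its transcript in the 4 comparisons; grey shows the median and middle 50% of all genes in bins of GC content, and open points were not called. In RAS against control JARID2 (1.05) and KDM6B (1.59) lie above the grey band and CBX7 (-0.13) and CBX8 (-0.49) below it, with the other 5 inside.

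**Figure D3:**
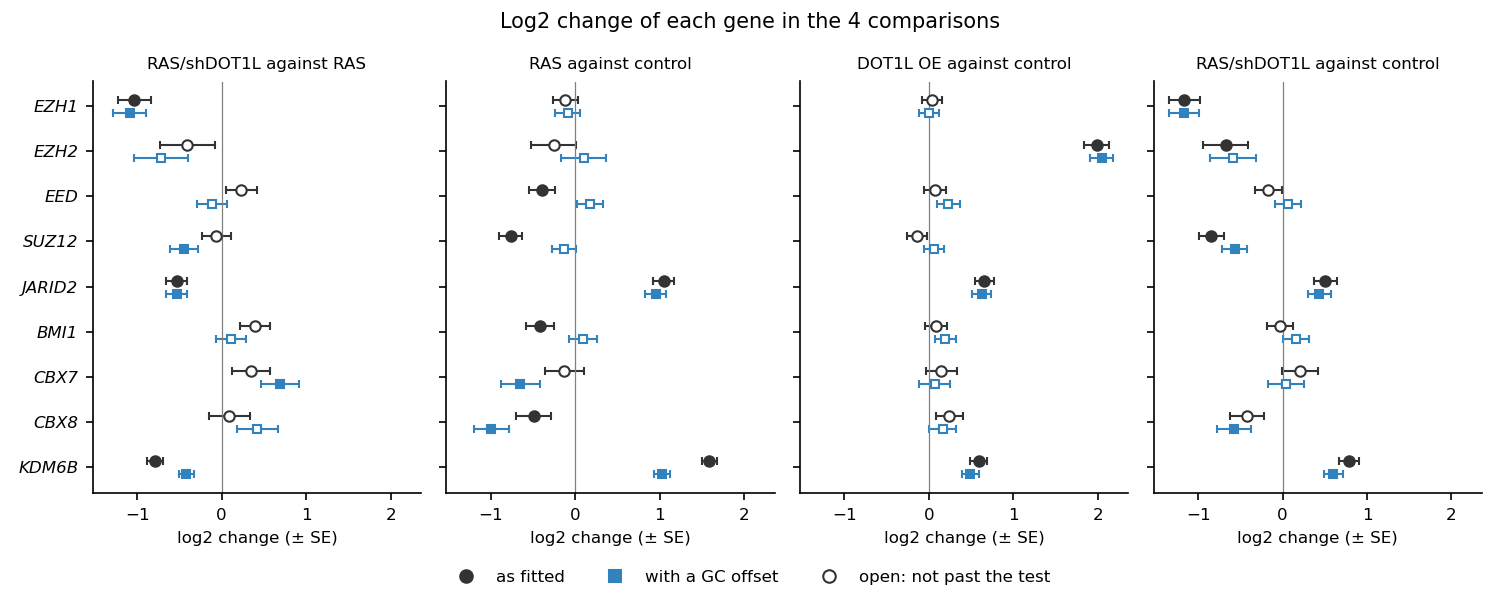
Log2 change with its SE for each gene in the 4 comparisons, as fitted (circles) and with the GC offset (squares); open marks were not called. In RAS against control EED moves to 0.17 and BMI1 to 0.093 with the offset, while EZH1, JARID2 and KDM6B stay called in RAS/shDOT1L against RAS.

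JARID2 and KDM6B, the genes called in all 4 comparisons, have a second start in the RefSeq table whose window holds the motif of NF-kB, a factor of inflammatory genes, searched by its consensus on both strands. The motif was in 11.3% of the 35116 windows and in 3 of the 12 windows of these genes, the remaining one being a window of BMI1. The AP-1 motif TGANTCA was in 7.71% of all windows and in 0 of the 12. The 12 windows held 2 to 65 CpG, against a median of 14 over all windows, and the second window of KDM6B was the lowest. It is shown with the second window of JARID2, as a CpG-poor start beside a CpG-rich one, 5′ to 3′ on the plus strand outside annotated exons with the match in capitals (for KDM6B in its reverse complement), at chr6:15248635-15248854 for JARID2 and chr17:7839667-7839903 for KDM6B. Gene counts do not tell which start was used, and a match of letters is not a binding site. The part of NF-kB in the changes of these genes was not tested.
JARID2: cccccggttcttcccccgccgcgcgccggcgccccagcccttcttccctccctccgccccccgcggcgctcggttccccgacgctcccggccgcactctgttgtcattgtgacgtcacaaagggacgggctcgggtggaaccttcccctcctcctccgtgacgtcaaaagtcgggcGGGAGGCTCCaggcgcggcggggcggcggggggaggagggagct
KDM6B: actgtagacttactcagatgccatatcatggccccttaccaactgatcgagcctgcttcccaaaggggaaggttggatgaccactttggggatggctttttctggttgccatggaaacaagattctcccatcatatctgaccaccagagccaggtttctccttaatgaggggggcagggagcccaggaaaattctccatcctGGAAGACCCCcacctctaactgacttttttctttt

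Ratios of genes within a library do not depend on how libraries are scaled, though they can follow GC content. The size of a ratio also depends on the union exon lengths used, while its log2 difference between groups does not. EZH2 over EZH1, in CPM per kb, was 1.03, 0.871 and 0.828 in DOT1L OE, against 0.283, 0.164 and 0.267 in control, with no overlap. It was 0.372, 0.205 and 0.472 in RAS/shDOT1L and 0.139, 0.162 and 0.377 in RAS, which overlapped each other and control. DOT1L OE and control differed by 1.97 log2 units (exact two-sided permutation test, p = 0.1, the smallest that 3 against 3 libraries allow), and RAS/shDOT1L and RAS by 0.70 (exact p = 0.3). KDM6B over EZH2, a demethylase over a methyltransferase, was 17.1, 21.0 and 13.6 in RAS/shDOT1L and 33.5, 24.5 and 15.0 in RAS. In DOT1L OE the ratio was 2.13, 2.51 and 2.32, against 6.38, 7.43 and 4.94 in control. RAS and RAS/shDOT1L lay above control, by 1.90 and 1.46 log2 units, and DOT1L OE below it (-1.41). None of these overlapped control (exact permutation p = 0.1 in each), while RAS/shDOT1L and RAS overlapped (-0.44, exact permutation p = 0.3). The ratios carry no GC offset. With the offset KDM6B and EZH2 changed by 1.03 and 0.098 in RAS against control. They changed by 0.60 and -0.59 in RAS/shDOT1L against control, and by 0.49 and 2.04 in DOT1L OE against control. CBX8 over CBX7 overlapped in all 4 comparisons, at 1.31 ± 0.186 in RAS/shDOT1L, 1.70 ± 0.809 in RAS, 2.15 ± 0.402 in DOT1L OE and 2.11 ± 0.574 in control (SD, n = 3 each). The p-values of these 12 comparisons are not adjusted, since none can go below 0.1.

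**Figure D4:**
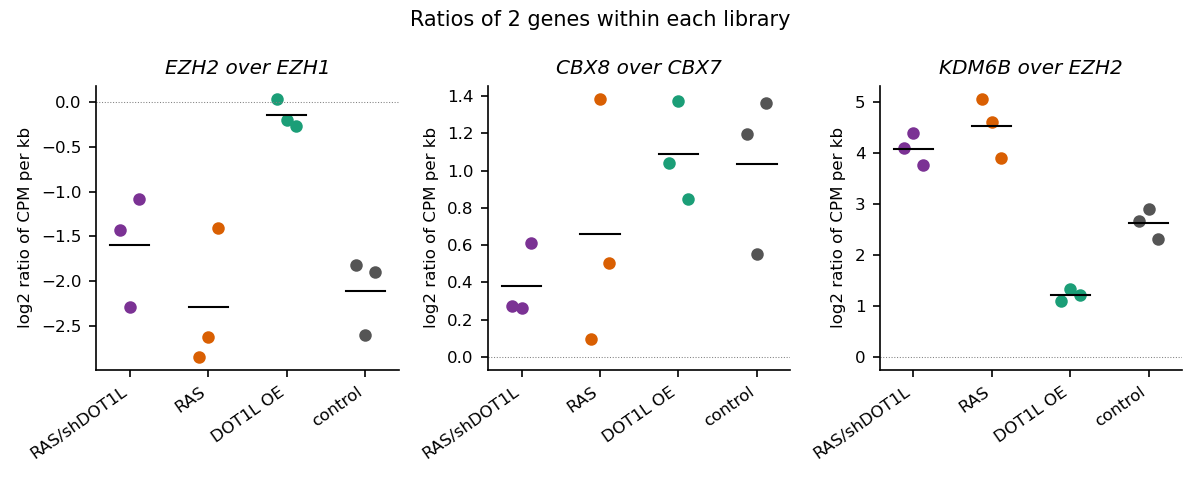
Log2 ratio of the CPM per kb of 2 genes within each library (points), with the mean of each group. EZH2 over EZH1 averages -0.15 in DOT1L OE, against -2.11 in control.

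KDM6A, the X-linked relative of KDM6B, had 24.1, 24.7 and 23.1 CPM in DOT1L OE, against 13.9, 14.6 and 11.8 CPM in control, with no overlap (log2 change 0.84, SE 0.12, edgeR adjusted p = 2.22e-07). It was not called in RAS against control (log2 change 0.12, SE 0.15, edgeR adjusted p = 0.523) or in RAS/shDOT1L against RAS (log2 change 0.33, SE 0.16, edgeR adjusted p = 0.0929), and with the GC offset edgeR called it higher in RAS against control (0.56, adjusted p = 0.00243). It had 14.3, 21.4 and 18.4 CPM in RAS/shDOT1L and 14.1, 13.7 and 15.8 CPM in RAS, and was called above control in RAS/shDOT1L, with overlap (0.43, edgeR adjusted p = 0.0231).

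Of 7 other PRC2 genes tested, 4 were higher and 1 lower in DOT1L OE against control, led by PHF19, which tethers PRC2 to chromatin (79.3 ± 3.603 CPM in DOT1L OE, against 34.2 ± 2.15 in control cells, log2 change 1.22, edgeR adjusted p = 3.21e-15), and by the histone chaperones RBBP4 (0.71) and RBBP7 (0.28). RAS against control gave 2 higher and 3 lower, with PHF1, a relative of PHF19, at 0.67, RBBP7 at -0.41 and AEBP2, a cofactor, at -0.83, and none of these 3 was called with the GC offset. RAS/shDOT1L against RAS gave 2 higher and 1 lower, with LCOR at 1.12, PHF1 at -0.34 and RBBP7 at 0.32. RAS/shDOT1L against control gave 2 higher, PHF1 (0.32) and PHF19 (0.26), and 1 lower, AEBP2 (-1.26). Of all genes, 31.9% were called higher and 32.0% lower in RAS against control, and 26.3% and 26.4% in RAS/shDOT1L against RAS. The shares were 29.9% and 29.9% in DOT1L OE against control, and 27.9% and 27.6% in RAS/shDOT1L against control. With the GC offset 53.1%, 46.3%, 59.5% and 55.1% of all genes were called, in the same order. The counts with the GC offset were 2 higher and 0 lower in RAS against control, 1 and 1 in RAS/shDOT1L against RAS, 4 and 0 in DOT1L OE against control, and 1 and 1 in RAS/shDOT1L against control. PHF1 was then called in no comparison, and neither was RBBP7 in RAS/shDOT1L against RAS or PHF19 in RAS/shDOT1L against control. The list's median change as fitted was -0.015 in RAS against control (all genes -0.043), 0.17 in RAS/shDOT1L against RAS (0.028), 0.28 in DOT1L OE against control (0.0060) and 0.20 in RAS/shDOT1L against control (-0.0093).

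CBX6, a further chromodomain subunit, had the smallest p of the other canonical PRC1 genes in 2 comparisons. It had 62.6, 69.3 and 63.4 CPM in RAS/shDOT1L, against 186, 189 and 191 CPM in RAS (log2 change -1.52, SE 0.067, edgeR adjusted p = 3.12e-19, and -1.18 with the GC offset). It had 177, 177 and 174 CPM in DOT1L OE, against 116, 111 and 102 CPM in control cells (log2 change 0.68, SE 0.055, edgeR adjusted p = 1.96e-12). The groups did not overlap in these comparisons, and RAS/shDOT1L was the lowest of the 4. PHC2, a Polyhomeotic subunit, was above control in RAS (0.93) and below RAS in RAS/shDOT1L (-0.40), where it was not called with the GC offset. Over the list, 4 of 9 genes were higher and 4 lower in RAS against control (31.9% and 32.0% of all genes). The counts were 2 higher and 4 lower of 10 in RAS/shDOT1L against RAS (26.3% and 26.4% of all genes). They were 4 and 1 in DOT1L OE against control (29.9% and 29.9%), and 2 and 5 in RAS/shDOT1L against control (27.9% and 27.6%). After the GC offset they were 3 higher and 4 lower in RAS against control, 2 and 2 in RAS/shDOT1L against RAS, 4 and 1 in DOT1L OE against control, and 3 and 6 in RAS/shDOT1L against control. Of all genes 53.1%, 46.3%, 59.5% and 55.1% were then called, in the same order. The list's median as fitted was -0.21 in RAS against control and -0.33 in RAS/shDOT1L against RAS (-0.092 with the offset). It was 0.14 in DOT1L OE against control and -0.39 in RAS/shDOT1L against control. Over all genes the medians as fitted were -0.043, 0.028, 0.0060 and -0.0093, in the same order.

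Of 15 genes of variant PRC1, 8 were higher and 5 lower in RAS against control (31.9% and 32.0% of all genes), led by the PCGF subunit gene PCGF5 (-1.83, edgeR adjusted p = 2.66e-12), DCAF7 (0.46) and BCORL1 (0.78). RAS/shDOT1L against RAS gave 3 higher and 6 lower (26.3% and 26.4% of all genes), led by DCAF7 (-1.03), the deubiquitinase USP7 (-1.10) and PCGF5 (1.18). DOT1L OE against control gave 8 higher and 3 lower (29.9% and 29.9%), led by KDM2B, which binds CpG islands (0.85), DCAF7 (0.40) and PCGF5 (-0.81). RAS/shDOT1L against control gave 2 higher and 5 lower (27.9% and 27.6%), led by USP7 (-1.22), DCAF7 (-0.57) and MGA (-0.86). Under the GC offset these genes kept their calls, and the counts were 6 higher and 3 lower in RAS against control, 3 and 5 in RAS/shDOT1L against RAS, 7 and 4 in DOT1L OE against control, and 4 and 6 in RAS/shDOT1L against control. The list's median as fitted was 0.22 in RAS against control, -0.20 in RAS/shDOT1L against RAS, 0.40 in DOT1L OE against control and 0.0048 in RAS/shDOT1L against control, where the offset turned it to -0.11. Of 3 genes of the H2A deubiquitinase that opposes PRC1, 1 was higher and 1 lower in RAS against control, 0 and 2 in RAS/shDOT1L against RAS, 2 and 0 in DOT1L OE against control, and 0 and 1 in RAS/shDOT1L against control, with 2 and 1 in RAS against control under the GC offset. The list's median as fitted was 0.11 in RAS against control, -0.41 in RAS/shDOT1L against RAS, 0.24 in DOT1L OE against control and -0.32 in RAS/shDOT1L against control. Its catalytic subunit BAP1 was higher in RAS against control (0.66) and in DOT1L OE against control (0.48), lower in RAS/shDOT1L against RAS (-0.66), and not called in RAS/shDOT1L against control (-0.018).

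The INK4 locus, the best known target of BMI1, CBX7 and CBX8 in fibroblasts, has 2 coding genes. CDKN2A, which encodes p16 and the unrelated protein ARF that gene counts do not separate, had 60.3, 69.9 and 67.8 CPM in RAS/shDOT1L and 53.3, 63.1 and 57.8 CPM in RAS. It had 9.76, 14.1 and 12.97 CPM in DOT1L OE, against 30.2, 26.6 and 30.9 CPM in control. Both groups with HRAS G12V were above control and DOT1L OE was below it, with no overlap. CDKN2B, which encodes p15, had 34.98, 39.5 and 40.8 CPM in RAS/shDOT1L and 53.8, 56.4 and 56.3 CPM in RAS. It had 5.87, 4.81 and 2.996 CPM in DOT1L OE, against 24.1, 18.1 and 20.2 CPM in control. The order against control was that of CDKN2A, again with no overlap. DOT1L OE against control gave -1.24 for CDKN2A (edgeR adjusted p = 2.86e-10) and -2.19 for CDKN2B (edgeR adjusted p = 1.47e-12). RAS/shDOT1L against RAS gave -0.51 for CDKN2B (edgeR adjusted p = 3.15e-05), while CDKN2A was not called (0.20, edgeR adjusted p = 0.0523) until the GC offset was applied (0.55). The antisense transcript CDKN2B-AS1 had 0 to 9 counts a library and was not tested.

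Of 34 developmental regulators that PRC2 silences in most differentiated cells, 4 passed the filter, TBX5, MSX1 and GATA6 among them, and none of the other 30 had over 0.854 CPM in any library. MSX1 was above control in RAS (0.97, edgeR adjusted p = 0.00164), a call that was lost with the GC offset (0.46, edgeR adjusted p = 0.142). TBX5, a regulator of lung mesenchyme, was above control in DOT1L OE (66.5 CPM, against 20.7 in control cells, log2 change 1.69, edgeR adjusted p = 7.89e-18) and below RAS in RAS/shDOT1L (-1.14, edgeR adjusted p = 1.76e-05). Of the 4 genes, 1 was higher and 1 lower in RAS against control (31.9% and 32.0% of all genes). The counts were 1 and 1 in RAS/shDOT1L against RAS (26.3% and 26.4% of all genes), and 3 and 0 in DOT1L OE against control (29.9% and 29.9%). They were 1 and 2 in RAS/shDOT1L against control (27.9% and 27.6%). The offset changed the counts to 0 and 2 in RAS against control and 2 and 1 in RAS/shDOT1L against RAS, where 53.1% and 46.3% of all genes were then called. The median of the 4 as fitted was -0.35 in RAS against control, 0.29 in RAS/shDOT1L against RAS, 0.64 in DOT1L OE against control and -0.82 in RAS/shDOT1L against control.

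**Figure D5:**
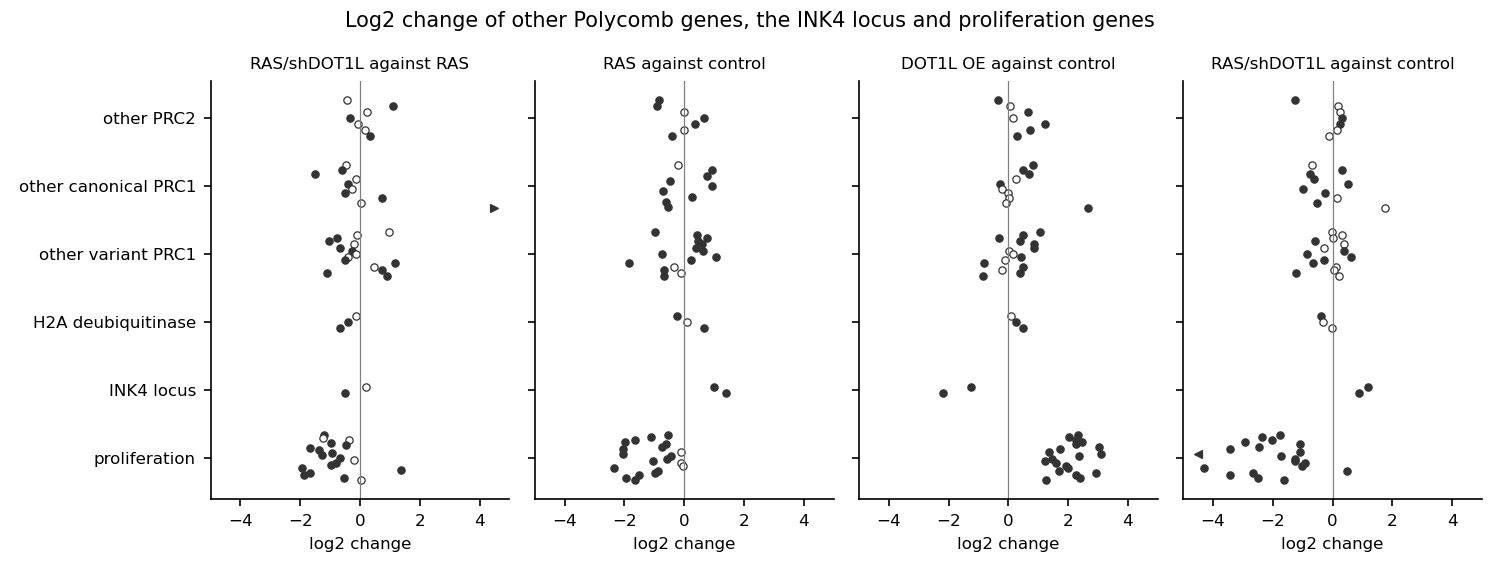
Log2 change of each tested gene of 6 lists in the 4 comparisons; open marks were not called, and triangles are genes fitted beyond the axis against a group with no counts, whose size has no meaning. In DOT1L OE against control all 20 proliferation genes lie right of 0 and CDKN2A (-1.24) and CDKN2B (-2.19) left of it.

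The genes whose level over the 12 libraries was most like that of EZH2, CBX7 and KDM6B, by Pearson r of log2 CPM among 9963 named genes, are given as a description, since the libraries fall into 4 groups. For KDM6B they were GFPT2, an enzyme of hexosamine synthesis, EMID1 and TRAF3IP2, an adaptor of IL-17 signalling, with r of 0.99, 0.98 and 0.98. GFPT2 averaged 39.7 CPM in RAS/shDOT1L, 142 in RAS, 21.6 in DOT1L OE and 7.71 in control. For EZH2 they were PHYH, a peroxisomal enzyme, FANCG, of the Fanconi anaemia complex, and NPR3, with r of 0.97, 0.97 and 0.97, all highest in DOT1L OE. For CBX7, whose groups overlapped, they were COA7, ATG5 and HPS3, with r of 0.89, 0.79 and 0.76.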

How the data were processed

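Poly(A) RNA from 12 libraries was sequenced. Per the methods and labels, the authors aligned reads to GRCh38 with STAR and deposited raw read counts per Ensembl gene ID, not normalized; the strand setting and annotation release are not given in the sources used here. The first column gave the ID and the second the count. Symbols, exon lengths and GC content came from GENCODE (GRCh38).

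Each comparison was fitted on its 6 libraries in edgeR 4.0.16 (TMM, filterByExpr, quasi-likelihood F test, R 4.3.3), with a second test for changes over 1.5-fold. Members and lists were chosen with earlier results of these data known. Named genes were all 9 members, the INK4 genes and KDM6A, and up to 3 called genes a list by smallest p, of which those with few counts and some of the longer lists are not described. Alternatives were DESeq2 1.42.0, limma-voom 3.58.1, other filters and scalings, 1 fit over all groups, a replicate block, a GC offset over 20 bins, and leaving out each library. The fits were tested on simulated data. CPM per kb used union exon length. Some listed genes are not reported here.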

Additional observations from a re-analysis of the deposited data

How the results depend on the processing

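Of 36 log2 changes under 16 alternatives each, 18 kept their direction and call throughout, among them all 4 of JARID2 and of KDM6B, and 12 of the 17 that were called did so. The cause of the changes below was not tested. In RAS against control the members called ranged from 3 to 6 without 1 library, with the fewest when RAS replicate 1 or control replicate 1 was left out. In RAS/shDOT1L against RAS they were 5 with the GC offset and 5 with the GC offset and replicate block. Members over 1.5-fold in RAS/shDOT1L against RAS were 1 with library size as the only scaling, 0 with DESeq2, 0 with limma-voom, 1 with the GC offset, 1 with offset and block, and 0 to 2 without 1 library (0 without RAS/shDOT1L replicate 3 or RAS replicate 1, and 1 without RAS/shDOT1L replicate 2, RAS replicate 2 or RAS replicate 3). In RAS/shDOT1L against control they were 2 with library size, 3 in 1 fit over all groups, 2 with the block, and 1 to 2 without 1 library (2 without RAS/shDOT1L replicate 3, control replicate 1 or control replicate 3). With the GC offset, alone and with the replicate block, signs turned in RAS against control for EZH2 (0.098 and 0.057), EED (0.17 and 0.17) and BMI1 (0.093 and 0.090), in RAS/shDOT1L against RAS for EED (-0.11 and -0.12), in DOT1L OE against control for SUZ12 (0.060 and 0.068) and, with the offset alone, EZH1 (-0.0020), and in RAS/shDOT1L against control for EED (0.063 and 0.054) and BMI1 (0.16 and 0.16). With library size alone SUZ12 turned to 0.0074 in RAS/shDOT1L against RAS. Leaving out 1 library spanned both signs for CBX7 in RAS against control (-0.32 to 0.14), CBX8 in RAS/shDOT1L against RAS (-0.019 to 0.24), EZH1 (-0.048 to 0.11) and EED (-0.069 to 0.15) in DOT1L OE against control, and BMI1 in RAS/shDOT1L against control (-0.082 to 0.042). The same held for the log2 ratios of EZH2 over EZH1 in RAS against control (-0.63 to 0.093), CBX8 over CBX7 in RAS/shDOT1L against RAS (-0.56 to 0.083) and CBX8 over CBX7 in DOT1L OE against control (-0.19 to 0.21).

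Same-numbered libraries deviated together weakly or not at all (every r of deviations was between -0.0190 and 0.0273). Of 6 libraries, 2 correlated best with their own number in RAS against control and 4 in RAS/shDOT1L against RAS. The counts were 0 in DOT1L OE against control and 1 in RAS/shDOT1L against control. The main fits did not pair libraries by number, and with 3 libraries a group these correlations cannot show whether same-numbered libraries shared a batch. The replicate block gave 8435, 6871, 8030 and 7303 genes called, against 8670, 7058, 8180 and 7501 without it, and changed 0 calls of the 9 genes. The lowest counts in any library were 47 for EZH2, 88 for CBX7, 91 for CBX8 and 92 for EZH1.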
